A study of Mus musculus with 6 samples.

Results

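The genes described here encode the subunits of the mitochondrial respiratory chain and ATP synthase, measured by RNA-seq in mouse CD4+ T cells. They were chosen by symbol from the deposited table: Nduf (letters a, b, c, s and v), Sdha to Sdhd, Uqcr, Cox4 to Cox8 and Atp5 genes from the nucleus, and the mitochondrial Nd, Co, Cytb and Atp genes. Symbols ending in -ps were left out, and a total of at least 100 counts over the 6 libraries was required. Of 100 symbols that fitted, 92 met the minimum, out of 47725 genes in the table. The 8 below it were Cox4i2 (30 counts), Ndufa4l2 (5), Atp5l-ps1 (4), Cox8b (2), and Cox7b2, Cox8c, Atp5k-ps2 and Atp5l-ps2 (0 each), while the members nearest above it were Cox7a1 (135) and Cox6b2 (169). The 92 members are 79 nuclear and 13 mitochondrially encoded genes, and 42 belong to complex I, 4 to complex II, 9 to complex III, 18 to complex IV and 18 to complex V. Ndufa4 was placed in complex IV, where its protein is found, and Atp5sl in no complex, because its protein is not an ATP synthase subunit despite the name. Atp5s was counted with complex V by its symbol, and whether its protein is a subunit was not examined. All 92 passed the filter on low counts. Cox6a2 met the minimum of 100 counts and passed this filter only through its level in the CKBA group.

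Naive CD4+ T cells of wild type C57BL/6 mice were cultured for 3 days under conditions that direct them towards the TH17 fate, a helper T cell type that makes interleukin 17. The medium of both groups held 10% serum, the cytokines IL-6, IL-23 and TGF-β1 at 10 ng/ml each, and antibodies to CD28 at 2, to IL-4 at 5 and to IFN-γ at 10 μg/ml. Cells of the 3 treated libraries received CKBA, described as a derivative of AKBA, a boswellic acid of frankincense resin, and those of the 3 control libraries the solvent DMSO. The dose of CKBA, the sex and age of the mice and whether animals were pooled are not given in the sources used here. Libraries were made from total RNA with a TruSeq RNA kit, and whether it marked strand is not given in the sources used here.

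The respiratory chain passes electrons from NADH (complex I) and succinate (complex II) through coenzyme Q, complex III and cytochrome c to oxygen at complex IV. Complexes I, III and IV pump protons, and complex V, the ATP synthase, uses the proton gradient to make ATP. Most subunits are encoded in the nucleus and imported, and a core of complexes I, III, IV and V is encoded in mitochondrial DNA, so each of these complexes needs products of both genomes. Mitochondrial mRNAs are cut from long transcripts that span many genes. T cells that leave the naive state enlarge their mitochondrial content and use both respiration and glycolysis.

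Library totals ran from 19838347 to 25331863 counts. Replicates 1 and 2 of a group lay close together, with a mean chi-square per gene of 3.33 (DMSO) and 2.83 (CKBA), where sampling alone gives a value near 1. Replicate 3 stood apart from its own group, at 34.4 to 37.8. The T cell markers (8 genes) summed to 2569 to 2666 CPM (counts scaled to a common library total) with DMSO and 2188 to 2412 with CKBA. The labels also give mouse epidermis as the tissue. Of 8 keratinocyte markers, Krt14, Krt1, Krt15, Trp63 and Lor were at 0 in all 6 libraries and Krt5 had 1 count, while Dsp (3.98 to 6.66 CPM) and Krt10 (0.931 to 2.00 CPM) were detected, and the list summed to 5.36 to 5.68 CPM with DMSO and 5.73 to 8.64 CPM with CKBA. The markers of CD8 and NK cells (4 genes) summed to 35.2 to 45.7 CPM with DMSO and 27.3 to 32.4 CPM with CKBA. Of these, Cd8a fell by 0.50 on the log2 scale (adjusted p = 0.035, edgeR), while Cd8b1, at -0.19, did not pass (adjusted p = 0.491, edgeR). The T cell marker Cd3d also fell, by 0.37 (adjusted p = 0.0299, edgeR). The B cell marker Ms4a1 rose by 2.02 (adjusted p = 0.0434, edgeR), and no other marker passed. B cell markers (5 genes) moved with libraries of the CKBA group, at 54.1, 53.1 and 12.1 CPM in CKBA replicates 1, 2 and 3 against 20.6 to 27.2 CPM with DMSO. The part of these marker lists in the results was not tested. In bulk libraries, fewer cells of a type and less RNA per cell cannot be told apart.

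With CKBA, 3 mitochondrially encoded mRNAs fell, and of the nuclear subunits 4 rose. The mRNAs that fell were mt-Cytb, the mitochondrial subunit of complex III, mt-Co3, a core subunit of complex IV, and mt-Atp6, a proton channel subunit of ATP synthase. Those that rose were Cox6a2, Cox7c, Atp5g2 and Ndufs8, of which Cox6a2 became a member only through its counts in the CKBA group. The nuclear gene Atp5sl, which makes an assembly factor, fell as well. Thus 4 of 92 members were higher, against 7.86% of the 13928 genes tested, and 4 of 92 were lower, against 9.23% (edgeR's quasi-likelihood test, Benjamini-Hochberg adjusted p under 0.05). Neither count exceeded the background share. Of the nuclear members, 64 of 79 (81.0%) had an estimate above 0, against 50.5% of all genes. Within replicate number 3 alone, 37 of 79 were above 0. Of the mitochondrial members, 5 of 13 (38.5%) had an estimate above 0, nearer to the share of all genes, and 8 had one below 0. A difference in direction between the genomes was not tested. Over the alternatives run, 59 to 67 nuclear estimates were above 0, and 6 to 9 mitochondrial ones were below 0. The median log2 fold change was 0.13 for nuclear members, -0.04 for mitochondrial members and 0.01 for all genes tested.

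**Figure D1:**
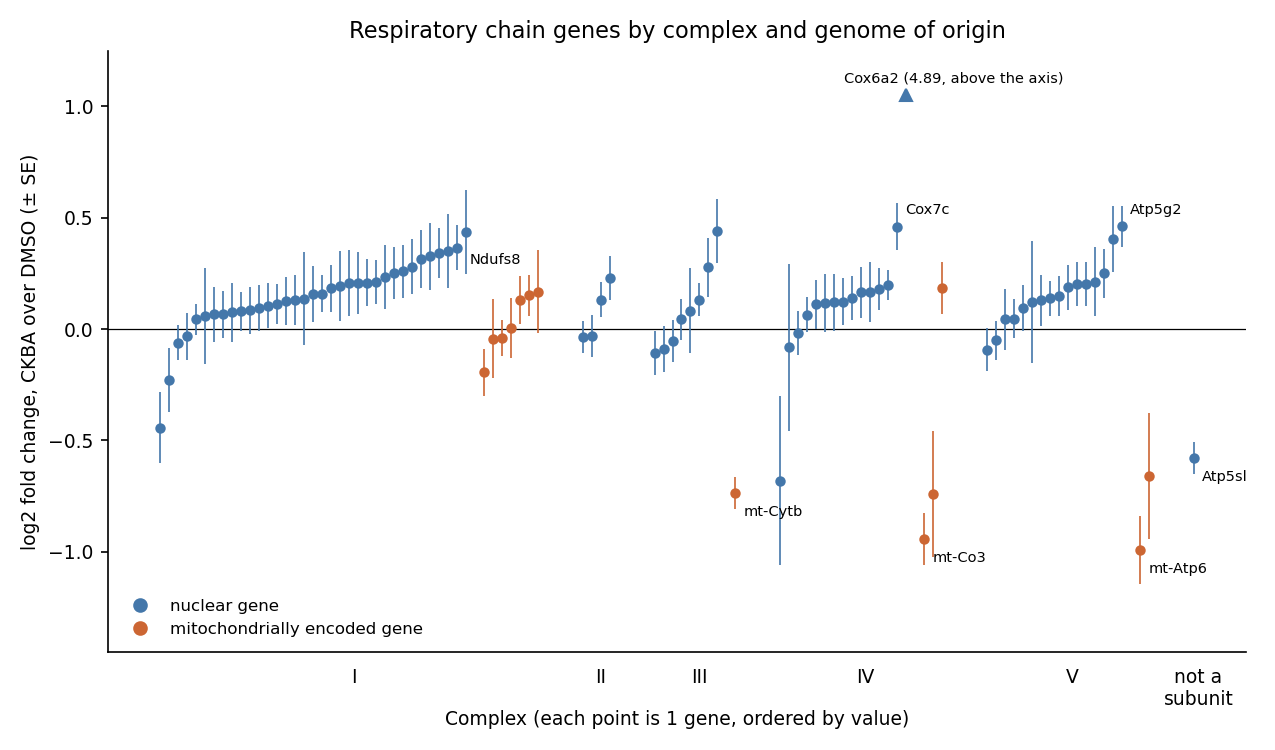
Log2 fold change of each of the 92 members (CKBA over DMSO, 3 libraries each, error bars SE from edgeR), ordered by value within complexes I to V, with nuclear genes in blue, mitochondrially encoded genes in orange and the 8 members past the test named. Most nuclear points lie a little above 0, while mt-Cytb, mt-Co3 and mt-Atp6 lie at -0.74, -0.94 and -0.99, and Cox6a2 at 4.89 is drawn as a triangle because it lies above the axis.

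The mitochondrial genes as a whole took about the same share of each library with and without CKBA. Their 13 mRNAs made up 2.48%, 2.26% and 2.73% of counts in replicates 1, 2 and 3 with DMSO, and 2.50%, 2.36% and 2.75% in the same order with CKBA. More than 1 percentage point of that in each library came from a single gene, mt-Co1, the catalytic subunit of complex IV, at 1.29% to 1.71% with DMSO and 1.48% to 1.90% with CKBA. The other 12 together were at 1.08%, 0.967% and 1.01% with DMSO and 0.918%, 0.876% and 0.842% with CKBA, so that the groups did not overlap. The total thus did not separate the groups, nor did mt-Co1 alone, while the sum of the other 12 did. Of these 12, mt-Cytb fell from a mean of 2606 CPM with DMSO to 1565 CPM with CKBA. The others with separated groups, mt-Co2, mt-Atp6, mt-Co3 and mt-Atp8, were at 128.7 CPM or less in every library. The 7 complex I mRNAs among the 12 each overlapped between groups. The sum without mt-Cytb was not taken, so the separation of the 12 is not shown to go beyond mt-Cytb. A shift across the whole pool is not shown.

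mt-Cytb (mitochondrial genome, 14145 to 15288 of GRCm38) encodes cytochrome b, which carries both quinone sites of complex III. It was at 2693, 2506 and 2618 CPM in replicates 1, 2 and 3 with DMSO, and at 1591, 1494 and 1609 CPM in the same order with CKBA. Every CKBA library lay far below every DMSO library, and replicate 3 did not stand apart. The log2 fold change was -0.74 ± 0.07 (SE, adjusted p = 9.08e-04, edgeR), and within replicate numbers 1, 2 and 3 the differences were -0.76, -0.75 and -0.70. The call held whichever of the 6 libraries was left out. It was lost (adjusted p = 0.0776, edgeR) when replicates 1 and 2 of each group were summed to 1 library, which leaves 2 libraries a group.

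mt-Co3 (8607 to 9390) encodes a core subunit of complex IV. It was at 95.6, 77.4 and 83.8 CPM in replicates 1, 2 and 3 with DMSO, and at 48.0, 38.9 and 46.7 CPM in the same order with CKBA. The groups were well separated, and the log2 fold change was -0.94 ± 0.11 (SE, adjusted p = 0.00231, edgeR). mt-Atp6 (7927 to 8607), its upstream neighbour, encodes the subunit a that forms the proton path of ATP synthase. It was at 102.9, 84.9 and 95.5 CPM in replicates 1, 2 and 3 with DMSO, and at 54.5, 51.6 and 36.6 CPM in the same order with CKBA, with the lowest value in CKBA replicate 3. The log2 fold change was -0.99 ± 0.15 (SE, adjusted p = 0.00588, edgeR). Both calls held in all 6 fits that left out 1 library. With replicates 1 and 2 summed, mt-Co3 stayed past the threshold (adjusted p = 0.0482, edgeR) and mt-Atp6 did not (adjusted p = 0.089, edgeR).

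The other members of this stretch of the mitochondrial genome were lower in each CKBA library but did not pass. mt-Co2, the copper-binding subunit of complex IV that receives electrons from cytochrome c, was at 128.7, 113.9 and 115.9 CPM with DMSO and at 54.0, 48.6 and 111.6 CPM in CKBA replicates 1, 2 and 3. CKBA replicate 3 lay just below the lowest DMSO library and far above the other CKBA libraries. Its log2 fold change was -0.74 ± 0.28 (SE, adjusted p = 0.112, edgeR), and -1.22 without CKBA replicate 3 (adjusted p = 2.20e-04, edgeR). mt-Atp8, a small ATP synthase subunit whose gene overlaps that of mt-Atp6, had few counts, at 3.38 to 4.47 CPM with DMSO and 1.68 to 3.16 CPM with CKBA, and a log2 fold change of -0.66 ± 0.28 (SE, adjusted p = 0.15, edgeR). Thus 5 of 13 mitochondrial members had all CKBA libraries below all DMSO libraries, as did 18.4% of all genes tested, and 0 of 13 had them all above, against 18.2% of all genes.

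The mitochondrially encoded complex I subunits showed no such separation. mt-Nd1, mt-Nd2, mt-Nd4 and mt-Nd5, which belong to the membrane arm, had log2 fold changes of -0.19 ± 0.11, -0.04 ± 0.18, 0.15 ± 0.09 and -0.04 ± 0.08 (SE). mt-Nd3, mt-Nd4l and mt-Nd6, also of the membrane arm, were at 0.17 ± 0.19, 0.01 ± 0.13 and 0.13 ± 0.11. None of the 7 passed, with adjusted p of 0.247 to 0.982 (edgeR), and the groups overlapped for each. mt-Nd5 and mt-Nd6 overlap on opposite strands, so without knowledge of strand their shared reads cannot be told apart. mt-Co1 was at 0.18 ± 0.12 (SE, adjusted p = 0.321, edgeR), with 13002 to 16653 CPM with DMSO and 14850 to 18810 CPM with CKBA, and replicate 3 highest in both groups.

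**Figure D2:**
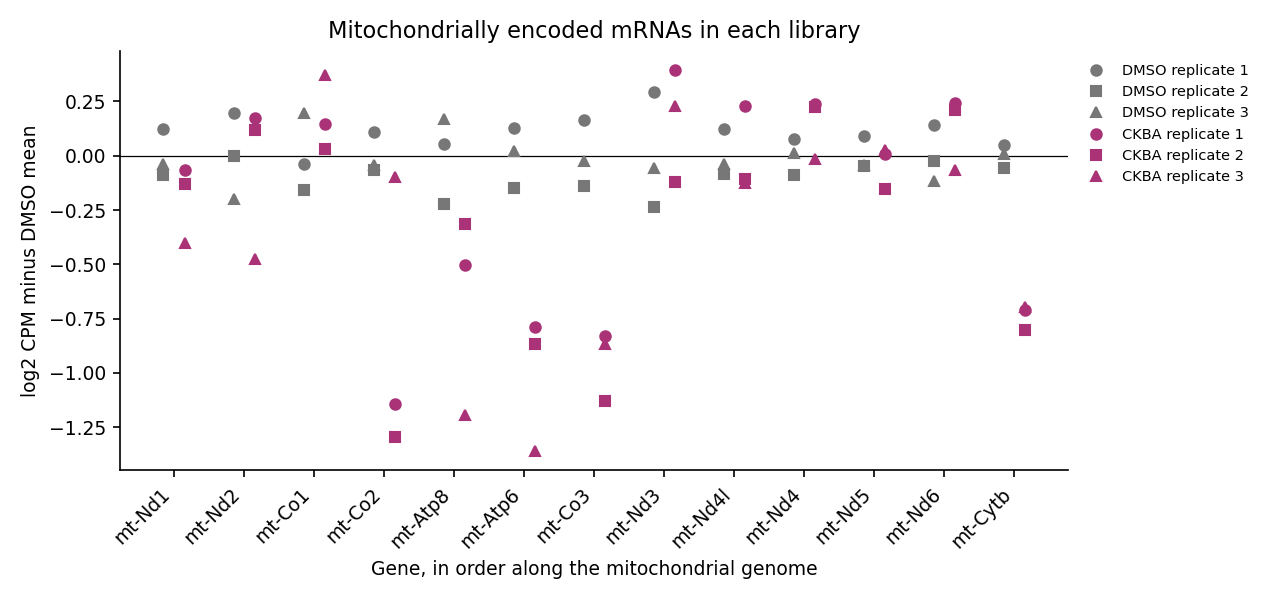
Level of each of the 13 mitochondrial mRNAs in each library, as log2 CPM minus the mean of the DMSO libraries, in the order of the genes along the mitochondrial genome (grey, DMSO; purple, CKBA; symbol shape, replicate number). All CKBA points lie below all DMSO points for mt-Co2, mt-Atp8, mt-Atp6, mt-Co3 and mt-Cytb, and for mt-Co2 the CKBA replicate 3 point lies close to the DMSO points.

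Per length, levels along the mitochondrial genome differed widely. By the authors' FPKM (fragments scaled to transcript length and library total), the DMSO mean was 9505 for mt-Co1 and 2287 for mt-Cytb, but 175 for mt-Co2, 139 for mt-Atp6, 110 for mt-Co3, 63.3 for mt-Nd4l, 38.1 for mt-Nd3 and 19.7 for mt-Atp8. Of these 6 genes with low values, all but mt-Atp8 have an annotated near-identical copy in nuclear DNA on chromosome 1, within chr1:24611535-24616197 (minus strand, GRCm38). GENCODE annotates 7 pseudogenes there. Estimated counts of reads that fit both places are divided between gene and copy, so the level of the gene alone depends on that division.

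Short stretches of 3 gene and copy pairs, from GENCODE transcripts, are shown because they show how little sequence there is to separate them. They are the first 61 bases of mt-Nd3 and of Gm28438, bases 1063 to 1123 of mt-Co1 with bases 10 to 70 of Gm29216, and the first 61 bases of mt-Co3 and of Gm28437. Capitals mark the base that differs between gene and copy: T3C for mt-Nd3 and A1066T for mt-Co1, counted from 1 at the 5′ end of the mitochondrial transcript.
mt-Nd3: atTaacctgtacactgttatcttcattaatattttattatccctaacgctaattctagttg
Gm28438: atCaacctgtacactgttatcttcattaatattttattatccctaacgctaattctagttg
mt-Co1: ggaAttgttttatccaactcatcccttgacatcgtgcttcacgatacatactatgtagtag
Gm29216: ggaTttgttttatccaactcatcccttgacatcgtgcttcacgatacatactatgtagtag
mt-Co3: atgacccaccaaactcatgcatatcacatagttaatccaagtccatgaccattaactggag
Gm28437: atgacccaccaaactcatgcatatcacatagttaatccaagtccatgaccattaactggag
The mt-Co3 pair had no difference in these bases or anywhere in the 783 bases aligned, and neither did mt-Atp6 with Gm10925 (678 bases) or mt-Co2 with Gm28661 (681 bases). The mt-Nd3 and mt-Co1 pairs differed at 1 base each, over 345 and 483 bases aligned.

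For 4 of these 7 genes, most counts had been assigned to the nuclear copy. The copy held 67.0% to 76.0% of the counts of the mt-Co3 pair, 69.9% to 77.7% for mt-Atp6, 61.7% to 72.1% for mt-Co2, 63.5% to 71.0% for mt-Nd4l and 17.4% to 51.7% for mt-Nd3. It held 6.01% to 8.87% for mt-Nd4, whose copy covers part of the gene, and Gm29216 held 1.31% to 1.96% for mt-Co1. A second copy of mt-Co1, Gm13340 on chromosome 2, held 0.0342% to 0.0472% of its counts. The share was not even between libraries: for mt-Co3 it was 67.0%, 70.0% and 69.8% with DMSO and 73.5%, 76.0% and 68.1% with CKBA. mt-Cytb, mt-Nd1, mt-Nd2, mt-Nd5, mt-Nd6 and mt-Atp8 had no annotated copy of at least 170 bases at 97% identity.

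With the counts of the copy added to each gene, mt-Co3 remained lower and mt-Atp6 lost its call, so that 4 members were higher (7.85% of all genes) and 3 lower (9.23%). The mt-Co3 sum was 290, 258 and 277 CPM with DMSO and 181, 162 and 146 CPM with CKBA, a log2 fold change of -0.75 ± 0.10 (SE, adjusted p = 0.00266, edgeR). The mt-Atp6 sum was 342, 301 and 332 CPM with DMSO and 244, 231 and 125 CPM with CKBA, where replicate 3 was lowest. The groups still did not overlap, and the log2 fold change was -0.70 ± 0.22 (SE, adjusted p = 0.0667, edgeR). The mt-Co2 sum gave -0.56 ± 0.18 (SE, adjusted p = 0.071, edgeR), and that of mt-Nd3 turned from 0.17 to -0.10 ± 0.17. The copy of mt-Co1, Gm29216, moved the other way from that of mt-Co3: it rose by a log2 fold change of 0.45 ± 0.09 (SE, adjusted p = 0.014, edgeR), whereas Gm28437 fell by 0.67 on the log2 scale (adjusted p = 0.00753, edgeR).

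**Figure D3:**
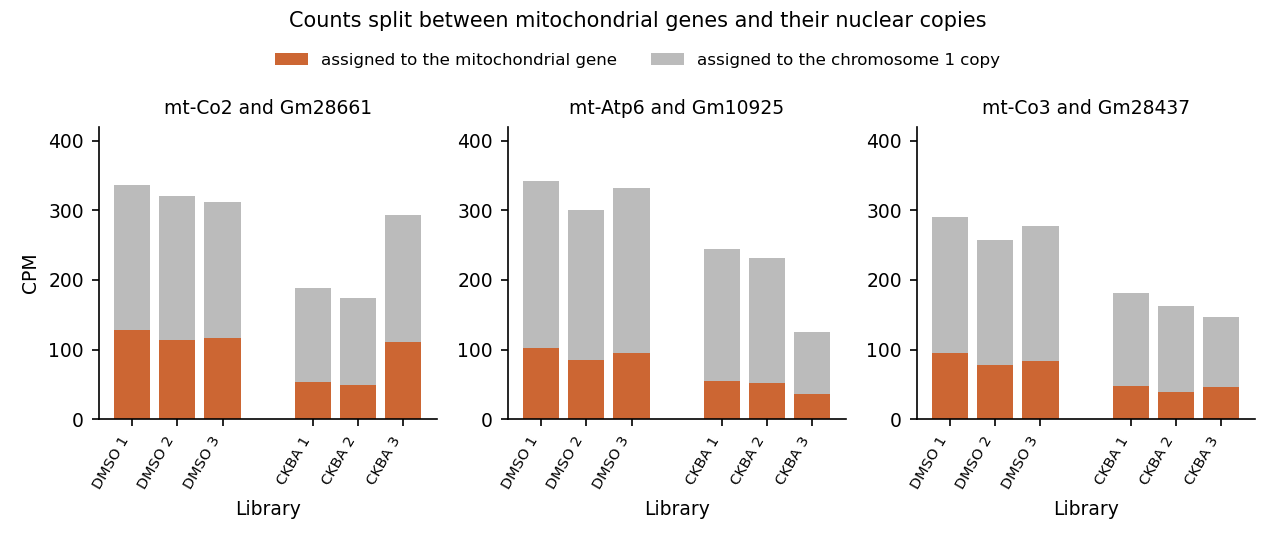
Stacked bars of CPM in each library for mt-Co2, mt-Atp6 and mt-Co3 (orange) with the counts assigned to the near-identical copy on chromosome 1 (grey). The sums of gene and copy are lower in every CKBA library than in every DMSO library for all 3 genes, with CKBA replicate 3 close to the DMSO libraries for mt-Co2 and lowest for mt-Atp6.

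The nuclear subunits were slightly higher in CKBA replicates 1 and 2 and not in CKBA replicate 3. Together they made up 0.758%, 0.766% and 0.745% of counts in replicates 1, 2 and 3 with DMSO, and 0.867%, 0.851% and 0.728% in the same order with CKBA. CKBA replicate 3 thus lay below all DMSO libraries, and the groups overlapped. Averaged over the 79 genes, Cox6a2 included, the log2 difference within replicate numbers 1, 2 and 3 was 0.25, 0.20 and 0.03. Of the 79 genes, 68, 67 and 37 were above 0. Over the 74 with at least 1000 counts, which leave out Cox6a2, it was 0.23, 0.17 and -0.03. Of these 74, 66, 64 and 34 were above 0. Without CKBA replicate 3, 36 nuclear members were called higher (13.7% of all genes were), and 1 lower (14.1% of all genes). Without replicate 3 of both groups, 53 were higher (26.1% of all genes) and 4 lower (26.6% of all genes). With replicates 1 and 2 summed, Cox6a2 was higher (0.372% of all genes) and no nuclear member was lower (0.359% of all genes). With the replicate number as a block, 9 nuclear members were higher (13.8% of all genes) and 2 lower (14.4% of all genes), the added ones being Cox7a2l, Ndufa7, Ndufb6, Ndufb9 and Uqcrq, and Ndufb11. The B cell marker sum moved with the same libraries, being higher in CKBA replicates 1 and 2 and lower in CKBA replicate 3, as given above, and its part in the result was not tested.

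**Figure D4:**
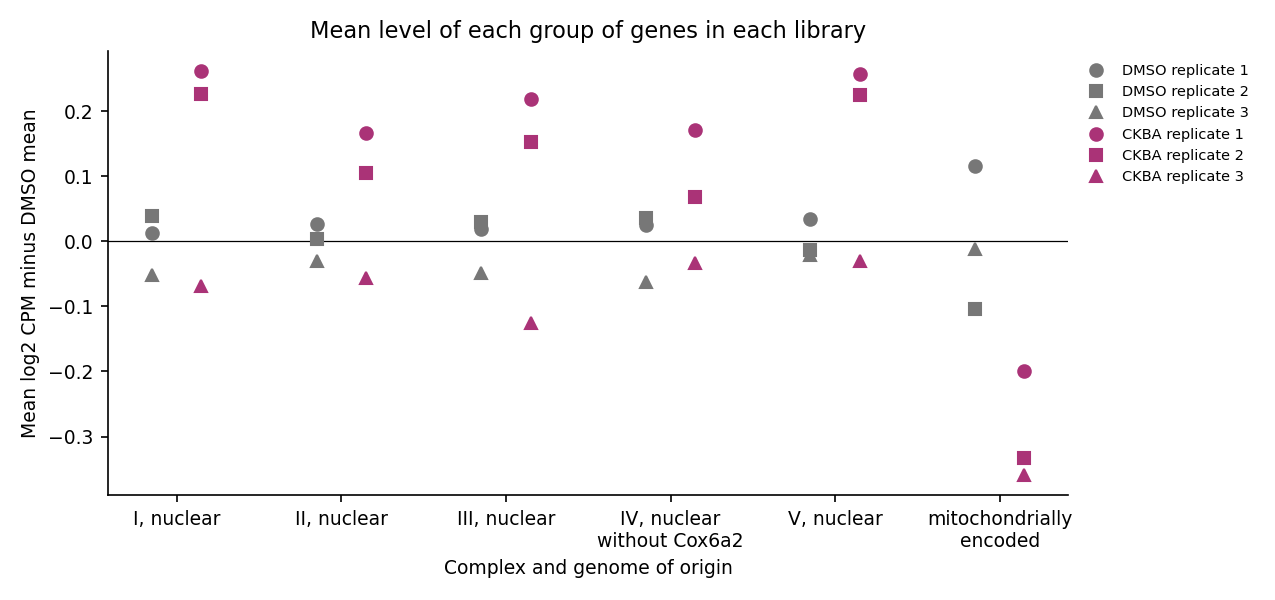
Mean over the genes of each complex of log2 CPM minus the mean of the DMSO libraries, for nuclear members of complexes I to V (complex IV without Cox6a2) and for the mitochondrially encoded members, in each library (grey, DMSO; purple, CKBA; symbol shape, replicate number). For nuclear genes of each complex, CKBA replicates 1 and 2 lie above the DMSO libraries and CKBA replicate 3 lies near or below them, while all 3 CKBA libraries lie below for the mitochondrially encoded genes. That last mean weighs 13 genes alike, of which 5 had all CKBA libraries below all DMSO libraries. The median log2 fold change of the 13 was -0.04.

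In complex I, 31 of 35 nuclear members had estimates above 0 (50.5% of all genes), with a median of 0.16. Within replicate number 3 alone, 19 of 35 were above 0. Of the 35, 1 was called higher (7.86% of all genes) and 0 lower (9.23% of all genes). The call was Ndufs8, a core subunit that holds iron-sulfur clusters, on chromosome 19 (3908863 to 3912774). It was at 31.9, 32.6 and 35.9 CPM with DMSO and 47.2, 43.1 and 39.3 CPM with CKBA. All CKBA libraries were above all DMSO libraries, and the log2 fold change was 0.37 ± 0.10 (SE, adjusted p = 0.0421, edgeR). The call was lost without DMSO replicate 1 or 2 or CKBA replicate 1 or 2 (adjusted p of 0.138 to 0.171, edgeR) and with a trend on transcript length removed (adjusted p = 0.0615, edgeR). The 7 nuclear core subunits had a median of 0.08, and the 28 supernumerary subunits, which surround the core, one of 0.16. All 12 Ndufa members were above 0, from 0.07 for Ndufa3 to 0.43 for Ndufa5, as were 9 of 10 Ndufb members. Within replicate number 3 alone, these counts were 7 of 12 and 4 of 10. The most abundant nuclear members of the complex by FPKM were the accessory subunits Ndufa6 (110 FPKM) and Ndufb11 (95.3 FPKM), at 0.11 ± 0.09 and -0.23 ± 0.14 (SE); Ndufb11 was called only with the block (adjusted p = 0.0387, edgeR). The lowest estimate belonged to Ndufv3, an accessory subunit of the NADH-binding module, at -0.44 ± 0.16 (SE, adjusted p = 0.0932, edgeR). Its libraries overlapped, since DMSO replicate 3 (50.7 CPM) lay within the CKBA range of 47.7 to 52.2 CPM and the other DMSO libraries at 72.2 and 80.6 CPM.

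Complex II is wholly nuclear, and its estimates ran from -0.03 to 0.23. Sdha, the flavoprotein that oxidizes succinate, and Sdhd, a membrane anchor, were at -0.03 ± 0.07 and -0.03 ± 0.10 (SE), and the groups overlapped for both. Sdhb, the iron-sulfur subunit, was at 0.23 ± 0.10 with overlapping groups. Sdhc, the other anchor, was at 0.13 ± 0.08, with all CKBA libraries (71.0 to 79.9 CPM) above all DMSO libraries (68.6 to 70.7 CPM), as for 18.2% of all genes tested. None of the 4 passed, with adjusted p of 0.147 to 0.854 (edgeR), while 7.86% of all genes were higher and 9.23% lower.

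In complex III, 5 of 8 nuclear members were above 0, with a median of 0.06. None passed, while 7.86% of all genes were higher and 9.23% lower. Their mitochondrial partner mt-Cytb fell, a difference between genes that was not itself tested. The most abundant nuclear members, Uqcrh, the hinge protein next to cytochrome c1, and Uqcrfs1, the Rieske iron-sulfur protein, were at -0.05 ± 0.09 and -0.11 ± 0.10 (SE). The core proteins Uqcrc1 and Uqcrc2 were at 0.04 ± 0.09 and 0.13 ± 0.07. The highest was Uqcrq, a small subunit, at 66.9, 62.0 and 59.3 CPM with DMSO and 96.2, 93.5 and 65.8 CPM with CKBA. CKBA replicate 3 lay within the DMSO range, and the log2 fold change was 0.44 ± 0.14 (SE, adjusted p = 0.0723, edgeR), with a call under the block (adjusted p = 0.0141, edgeR).

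In complex IV, 12 of 15 nuclear members were above 0, with a median of 0.12. Cox7c and Cox6a2 passed, so that 2 of 15 were higher, against 7.86% of all genes. Without Cox6a2, which became a member only through the CKBA group, 11 of 14 were above 0 and 1 was higher. Cox7c, a small subunit that spans the membrane, lies on chromosome 13 (86044816 to 86046904). It was at 72.9, 76.4 and 73.2 CPM with DMSO and 111.1, 109.0 and 86.3 CPM with CKBA. The groups were separated, with CKBA replicate 3 the lowest of its group, and the log2 fold change was 0.46 ± 0.11 (SE, adjusted p = 0.0235, edgeR). The call was lost without DMSO replicate 1 or 2 or CKBA replicate 1 or 2 (adjusted p of 0.0874 to 0.1, edgeR). Cox8a and Cox6a1, the most abundant nuclear members of the complex by FPKM at 273 and 222 FPKM, were at 0.14 ± 0.10 and 0.12 ± 0.13 (SE). Cox4i1, the common form of the largest nuclear subunit, was at 0.07 ± 0.08, while its hypoxia-linked form Cox4i2 was below the count minimum. Ndufa4 was at 0.12 ± 0.13. Cox7a2l was at 198.1, 201.3 and 202.1 CPM with DMSO and 236.7, 232.9 and 220.8 CPM with CKBA. Its groups did not overlap, and the log2 fold change of 0.20 ± 0.07 (SE, adjusted p = 0.0763, edgeR) was called only with the block (adjusted p = 0.0469, edgeR).

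The largest change among the members belonged to Cox6a2, the form of subunit 6a known from heart and skeletal muscle, on chromosome 7 (128205435 to 128206387). It had 2, 1 and 2 counts in replicates 1, 2 and 3 with DMSO, and 48, 66 and 56 counts in the same order with CKBA. It was thus near the limit of detection in all DMSO libraries and present in all CKBA libraries. With 5 counts in the DMSO group and 170 in the CKBA group, it became a member and was tested only through the CKBA group. Its test and the fits below are therefore not independent of how it was chosen. The log2 fold change was 4.89 ± 0.43 (SE, adjusted p = 6.10e-04, edgeR), and this fitted value depends on how such low counts are moderated. The ratio of summed counts per summed library size was 31.4, with an exact 95% interval of 13.2 to 98.0 for counting error only. The call held in all 6 fits with a library left out and with replicates 1 and 2 summed (adjusted p = 0.0347, edgeR). Itgad, which overlaps it on the opposite strand, had 14 counts over all libraries. Cox6a2 gave 0.0296% to 0.0737% of the FPKM of the pair Cox6a1 and Cox6a2 with DMSO and 1.35% to 1.85% with CKBA. The other muscle form among the members, Cox7a1, was at 0.705 to 1.27 CPM with DMSO and 0.779 to 1.33 CPM with CKBA. The testis form Cox6b2 was at 1.32 to 1.79 CPM with DMSO and 0.584 to 1.44 CPM with CKBA. Neither passed, and their groups overlapped. The muscle markers Acta1, Ckm and Myh4 were at 0 to 0.196 CPM in all libraries, and Tnnt3 at 1.32 to 4.04 CPM with DMSO and 1.04 to 3.51 CPM with CKBA.

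In complex V, 14 of 16 nuclear members were above 0, with a median of 0.14. Of the 16, 1 was called higher (7.86% of all genes) and 0 lower (9.23% of all genes). The call was Atp5g2 (chromosome 15, 102662864 to 102672352), which together with Atp5g1 and Atp5g3 encodes the subunit c of the rotor ring. It was at 128.8, 132.4 and 130.4 CPM with DMSO and 194.9, 187.0 and 157.6 CPM with CKBA. The groups were separated, and the log2 fold change was 0.46 ± 0.09 (SE, adjusted p = 0.0143, edgeR). The call was lost without DMSO replicate 1 or 2 or CKBA replicate 1 or 2 (adjusted p of 0.0657 to 0.0738, edgeR). Atp5g1 was at 0.40 ± 0.15 (SE, adjusted p = 0.101, edgeR) and Atp5g3 at 0.04 ± 0.14 (SE, adjusted p = 0.858, edgeR), and the groups of both overlapped. Copies of Atp5g2 and Cox7c elsewhere in the genome are annotated as processed pseudogenes, and both calls held with their counts added (adjusted p = 0.0138 and 0.0227, edgeR). The 3 Atp5g genes encode the same mature subunit c with different import signals. By FPKM, Atp5g2 made up 45.6%, 46.5% and 47.0% of the 3 genes with DMSO and 52.0%, 50.9% and 55.7% with CKBA, while Atp5g3 made up 45.1% to 47.2% and 36.7% to 40.3%. These shares did not overlap, and CKBA replicate 3 was farthest from DMSO. Atp5b and Atp5a1, the catalytic F1 subunit and its partner, were the most abundant of the complex at 257 and 246 FPKM and were at 0.20 ± 0.10 and 0.09 ± 0.10 (SE). Neither passed, with adjusted p of 0.200 and 0.569 (edgeR).

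Atp5sl (chromosome 7, 25619414 to 25625551), also called Dmac2, is known from human cells as an assembly factor of complex I. It was at 70.0, 72.0 and 68.4 CPM with DMSO and 46.5, 48.1 and 46.3 CPM with CKBA. The groups were well separated, replicate 3 did not stand apart, and the log2 fold change was -0.58 ± 0.07 (SE, adjusted p = 0.00251, edgeR). The call held in all 6 fits with a library left out and was lost with replicates 1 and 2 summed (adjusted p = 0.13, edgeR).

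**Figure D5:**
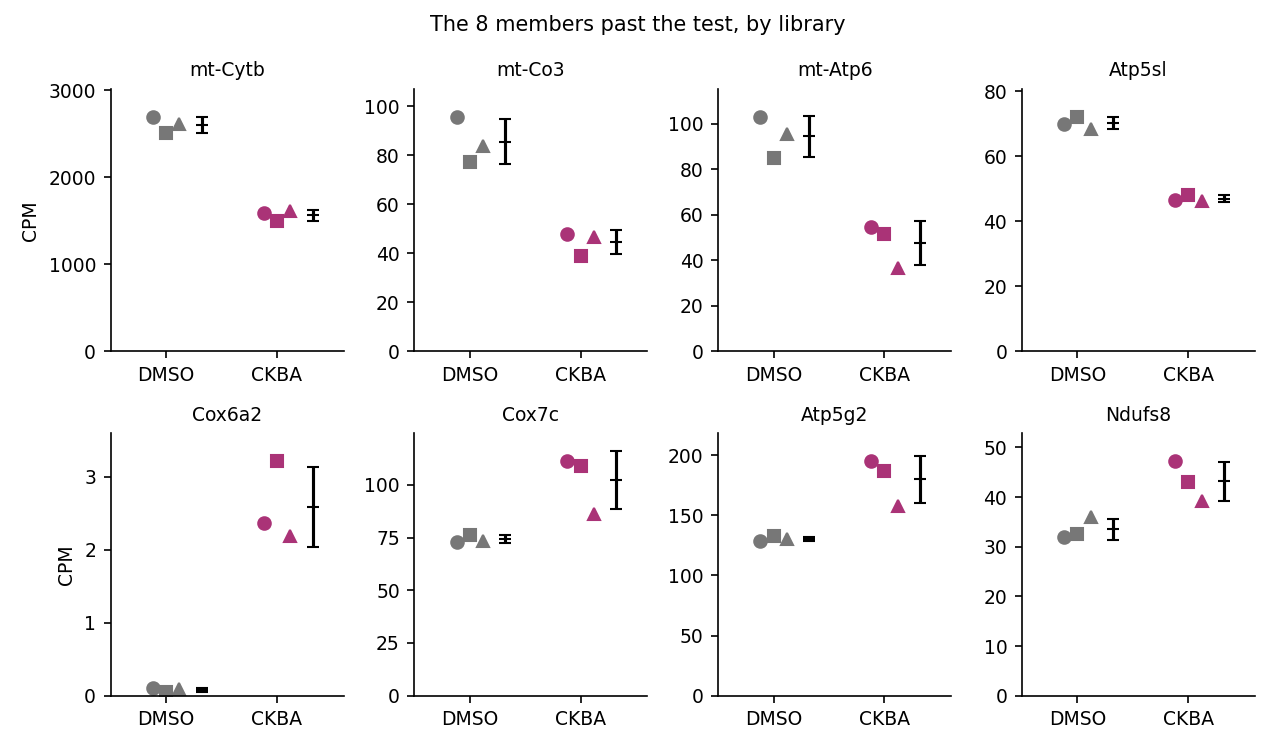
CPM in each library of the 8 members past the test, with DMSO in grey and CKBA in purple, symbol shape for the replicate number, and bars for the mean and SD of 3 libraries. For mt-Cytb and Atp5sl the libraries of a group lie close together, while for Cox7c, Atp5g2 and Ndufs8 CKBA replicate 3 (triangle) is the CKBA point nearest to DMSO.

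Nuclear respiratory genes are known for promoters with sites of the factors NRF1, the ETS family member GABP and YY1. The promoters of the 3 abundant nuclear subunits that rose are shown because each held a different one of these motifs: Atp5g2 (chr15:102670998-102671297, minus strand), Cox7c (chr13:86046746-86047045, minus strand) and Ndufs8 (chr19:3912725-3913024, minus strand). They span 250 bases before to 50 bases after the start, from RefSeq on GRCm38.p6, and capitals mark the motif, NRF1 in Atp5g2, YY1 in Cox7c and ETS in Ndufs8.
Atp5g2: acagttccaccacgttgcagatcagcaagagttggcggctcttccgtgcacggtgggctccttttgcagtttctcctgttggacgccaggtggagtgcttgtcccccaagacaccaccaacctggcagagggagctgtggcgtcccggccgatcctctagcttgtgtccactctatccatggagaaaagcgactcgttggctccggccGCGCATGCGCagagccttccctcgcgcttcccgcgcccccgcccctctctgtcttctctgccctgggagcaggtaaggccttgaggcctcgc
Cox7c: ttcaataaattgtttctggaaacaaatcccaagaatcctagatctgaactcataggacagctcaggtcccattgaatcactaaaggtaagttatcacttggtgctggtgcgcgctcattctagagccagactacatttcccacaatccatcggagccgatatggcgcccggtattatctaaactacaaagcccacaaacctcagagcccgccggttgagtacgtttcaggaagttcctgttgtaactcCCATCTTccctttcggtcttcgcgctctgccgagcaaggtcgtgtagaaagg
Ndufs8: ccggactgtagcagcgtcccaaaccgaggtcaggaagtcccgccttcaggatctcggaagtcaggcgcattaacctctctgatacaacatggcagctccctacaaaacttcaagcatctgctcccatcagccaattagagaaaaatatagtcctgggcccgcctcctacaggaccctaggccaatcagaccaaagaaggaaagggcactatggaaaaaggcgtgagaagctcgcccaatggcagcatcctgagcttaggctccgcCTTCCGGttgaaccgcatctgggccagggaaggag
The letters searched on both strands were GCATGCGC for NRF1, CCGGAAG for ETS and AAGATGG for YY1. The NRF1 letters can overlap their own reverse complement, as in Atp5g2, and the ETS and YY1 letters can share the bases AAG.

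Of the 79 nuclear members, 64 matched a RefSeq promoter entry, with 69 windows. NRF1 letters were in 14.5% of these windows, against 2.71% of all 32851 windows and 5.21% of those of genes tested. ETS letters were in 23.2%, against 8.86% and 17.5%. YY1 letters were in 14.5%, against 6.34% and 7.04%. At least 1 motif was in 43.5%, against 16.6% and 26.8%. Genes with and without a motif had similar medians: the median log2 fold change was 0.16 for the 10 genes with NRF1 letters and 0.14 for the other 54, 0.13 with ETS letters (16 genes) and 0.14 without, and 0.11 with YY1 letters (10 genes) and 0.14 without.

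Other genes that serve the respiratory chain were taken from 10 lists, with 127 of 136 genes tested. They cover assembly factors, cytochrome c and coenzyme Q synthesis, mitochondrial DNA and RNA metabolism, regulators, carriers and dehydrogenases. Of these, 10 were higher (7.87%, against 7.86% of all genes) and 0 lower (9.23% of all genes), and with the block 22 were higher (13.8% of all genes) and 6 lower (14.4% of all genes). With replicates 1 and 2 summed, 0 were called in either direction. Of the 10 calls, that of Nfe2l1 held in all 6 fits that left out 1 library, and the other 9 held in 1 to 3 of them. The calls of Ndufaf6, Coq10b, Tfb1m, Supv3l1, Gabpb1, Nrip1 and Perm1 were lost without DMSO replicate 1 or 2 or CKBA replicate 1 or 2, that of Etfa also without DMSO replicate 3, and that of Chdh without DMSO replicate 1 or CKBA replicate 1 or 2. Among regulators of mitochondrial genes, 4 of 11 were higher (7.86% of all genes), Nfe2l1, Gabpb1, Perm1 and the corepressor Nrip1. None was lower (9.23% of all genes), and the list had a median log2 fold change of 0.0013. The genes Nrf1, Gabpa, Gabpb2 and Yy1 were at -0.03, -0.003, -0.11 and -0.06 and did not pass. Ppargc1a had too few counts to be tested. Nfe2l1, a transcription factor of proteasome genes related to NRF2, was at 113, 108 and 113 CPM with DMSO and 194, 191 and 187 CPM with CKBA. The groups were far apart, and the log2 fold change was 0.78 ± 0.07 (SE, adjusted p = 5.64e-04, edgeR). Gabpb1, the partner of the DNA-binding subunit of GABP, rose by 0.38 ± 0.08, and Perm1, a regulator known from muscle, by 0.92 ± 0.20 from 2.06 to 2.18 CPM with DMSO to 3.78 to 4.19 CPM with CKBA (SE, adjusted p = 0.0199 and 0.0209, edgeR).

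Of the genes for mitochondrial DNA maintenance and transcription, 1 of 16 was higher (7.86% of all genes). It was Tfb1m, which methylates mitochondrial ribosomal RNA, at 0.76 ± 0.14 (SE, adjusted p = 0.011, edgeR). Tfam, which packages mitochondrial DNA, and Polg, its polymerase, were at 0.19 ± 0.09 and -0.17 ± 0.08 and did not pass. Of 17 genes for mitochondrial RNA processing and decay, 1 was higher (7.86% of all genes). It was Supv3l1, the helicase of the mitochondrial RNA degradosome, which rose by 0.40 ± 0.10 (SE, adjusted p = 0.0292, edgeR). The ribosomal RNA mt-Rnr1 was at 354, 306 and 226 CPM with DMSO and 488, 492 and 364 CPM with CKBA, all CKBA libraries above all DMSO libraries. Its log2 fold change was 0.60 ± 0.18 (SE, adjusted p = 0.0538, edgeR), which passed with the block (adjusted p = 8.64e-04, edgeR). The ribosomal RNA mt-Rnr2 overlapped between groups and was at 0.29 ± 0.22 (SE, adjusted p = 0.402, edgeR, and 0.0416 with the block).

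Of 14 complex I assembly factors, 1 was higher (7.86% of all genes) and 0 lower (9.23% of all genes). It was Ndufaf6, at 6.60, 5.73 and 6.07 CPM with DMSO and 9.67, 9.74 and 9.67 CPM with CKBA. Its log2 fold change was 0.66 ± 0.14 (SE, adjusted p = 0.0186, edgeR). None of the 10 assembly factors of complexes II and III, 20 of complex IV and 4 of complex V, the ATP synthase inhibitor Atpif1 included, passed. The shares of all genes were the same 7.86% and 9.23%. Of 15 genes for cytochrome c and coenzyme Q synthesis, 1 was higher (7.86% of all genes). It was Coq10b, a coenzyme Q binding protein, which rose by 0.61 ± 0.16 (SE, adjusted p = 0.0383, edgeR), and cytochrome c (Cycs) was at 0.15 ± 0.09. Of 8 genes for dehydrogenases that feed coenzyme Q, 2 were higher (7.86% of all genes), Etfa and Chdh. Etfa, a subunit of the electron transfer flavoprotein, rose by 0.30 ± 0.08 (SE, adjusted p = 0.0443, edgeR). Chdh, choline dehydrogenase, was at 0 to 0.564 CPM with DMSO and 1.48 to 3.12 CPM with CKBA. It passed the filter on low counts only through the CKBA group, so that its test (adjusted p = 0.0317, edgeR) compares a group near the limit of detection, and no fold is given. None of 12 genes of inner membrane transport passed, while 7.86% of all genes were higher and 9.23% lower. Among the 12 were Slc25a5, which exchanges ADP and ATP, at 0.03 ± 0.16, and Vdac1, an outer membrane channel, at -0.09 ± 0.14 (SE).

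In the authors' deposited table, 4 members were higher and 5 lower at an FDR under 0.05, against 7.89% and 9.01% of the genes tested here and 2.4% and 2.81% of all 47725 genes in the table. These 9 included 7 of the 8 called here. Uqcrq (log2 fold change 0.41, FDR 0.0328) and mt-Co2 (log2 fold change -0.69, FDR 0.018) were under that FDR in the authors' deposited table and did not pass here, and Ndufs8 was called here and not under it there. The authors' deposited table also marks genes as significant, none of them with an absolute log2 fold change below 1. Of the members, only Cox6a2 (higher) and mt-Atp6 (lower) carry that mark, as do 1.99% (higher) and 3.56% (lower) of the genes tested here.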

How the data were processed

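Gene-level counts and FPKM of 6 libraries (3 CKBA, 3 DMSO) were used. The authors' deposited estimated counts are whole numbers and come from RSEM on GRCm38, per the submitters' processing notes, which also name CASAVA 1.8 and edgeR. The aligner and annotation release are not given in the sources used here. The authors deposited FPKM per library, and their table also holds a log2 fold change, a p-value and an FDR per gene. Groups came from sample titles.

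The main test was edgeR 4.0.16, run under R 4.3.3 (TMM scaling, filterByExpr, robust quasi-likelihood F test, Benjamini-Hochberg adjustment over 13928 genes, threshold 0.05). CPM use TMM-scaled library sizes. A fold change is CKBA over DMSO. Alternatives used DESeq2 1.42.0 and limma 3.58.1 on log2(FPKM + 1) and log2(FPKM + 0.1), other scalings and filters, left-out libraries, replicates 1 and 2 summed, a block on replicate number and removal of a length trend (loess, span 0.3). Adding the counts of near-identical copies was chosen after seeing the data: transcripts elsewhere in GENCODE M21 (GRCm38) with at least 97% identity over at least 170 bases on the sense strand, found with blastn (BLAST 2.17.0); 47220 IDs matched GENCODE. The fits were tested on simulated data with the same dispersion for all genes and no shift of replicate 3. That setting differs from these libraries, so it does not show how the fits handle replicate 3.

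Nothing in the labels says that libraries of a group came from separate cultures or animals, so p-values measure the spread between these libraries, which may be technical. The main test did not pair libraries, and the replicate number entered only the alternatives with a block. Same-numbered libraries of the 2 groups deviated together (r across 13928 genes of 0.24, 0.24 and 0.44). The labels do not say that the number pairs them. Replicates 1 and 2 were not told apart by it (r of 0.23 and 0.24 when crossed), so what is shared by number is mainly the shift of replicate 3. With 3 libraries a group and 19838347 to 25331863 counts each, small changes of low genes cannot be detected, and the counting interval given covers counting error only.

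Genes named were all members past the test, all mitochondrially encoded members, the 2 most abundant nuclear members of each complex by FPKM, tissue isoforms, the 2 most extreme estimates in each direction and, from each related list, up to 3 members past the test or the 2 most abundant. Others named beside them were chosen after their values were seen. Members and lists were chosen with earlier results of these data known.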

Additional observations from a re-analysis of the deposited data

How the results depend on the processing

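Members were called higher in 4 and lower in 4 cases, against 7.86% and 9.23% of all genes tested. Leaving out 1 library gave 1 to 37 higher and 4 to 5 lower (nuclear 1 to 36 and 1 to 2, mitochondrially encoded 0 to 1 and 3 to 4). The 37 came without CKBA replicate 3, where 13.7% of all genes were higher and 14.1% lower. Without replicate 3 of both groups, 56 were higher and 9 lower (nuclear 53 and 4, mitochondrially encoded 3 and 5), against 26.1% and 26.6% of all genes. With replicates 1 and 2 summed, 1 was higher and 1 lower (nuclear 1 and 0, mitochondrially encoded 1 lower), against 0.372% and 0.359% of all genes. With the replicate block, 9 were higher, all nuclear, and 5 lower (nuclear 2, mitochondrially encoded 3), against 13.8% and 14.4% of all genes. With the block and the copies added these were 9, all nuclear, and 4 (nuclear 2, mitochondrially encoded 2), and with the block and the length trend removed 6 and 6 (nuclear members lower 2, mitochondrially encoded 4). DESeq2 gave 2 nuclear members lower. Over all genes, 1095 were higher and 1286 lower, and 251 to 1961 and 390 to 2015 with a library left out. These counts were 3660 and 3728 without replicate 3 of both groups, 56 and 54 with replicates 1 and 2 summed, 1922 and 2010 with the replicate block, 2004 and 1998 with the block and the length trend removed, and 1919 and 2007 with the block and the copies added. Of the 127 tested genes of the related lists, 10 were higher and 0 lower (7.86% and 9.23% of all genes), and 1 to 27 and 0 to 3 with a library left out. Higher and lower were 53 and 14 without replicate 3 of both groups (26.1% and 26.6% of all genes). They were 22 and 6 with the replicate block (13.8% and 14.4% of all genes), also with the copies added. With the block and the length trend removed they were 21 and 7, and 0 were higher with replicates 1 and 2 summed (0.372% of all genes). The number lower was 2 with DESeq2, 1 without the count filter, 2 with the length trend removed and 1 with limma at either pseudocount. The median of nuclear members stayed above 0 in all 19 alternatives (0.09 to 0.23). That of mitochondrially encoded members was -0.15 to 0.0066 with a library left out. Over nuclear and mitochondrially encoded members of a complex together, the complex IV median of 0.12 was 0.0574 to 0.23 with a library left out, 0.19 without replicate 3 of both groups, 0.0692 after removal of the length trend, and 0.064 if the block was included too. On the same basis, the complex III median of 0.04 ranged from -0.03 (CKBA replicate 1 left out) to 0.13 (CKBA replicate 3 left out). It was also below 0 when replicates 1 and 2 were summed (-0.0022), after removal of the length trend (-0.01) and when the block was included too (-0.03). The medians of complexes I, II and V (0.13, 0.05 and 0.13) were lowest without CKBA replicate 1 (0.0739, 0.0153 and 0.0997) and highest without CKBA replicate 3 (0.22, 0.11 and 0.22). The cause of these shifts was not tested. Besides the calls named above, the block changed no other call of a member. Depth limits mt-Atp8, Cox6a2, Cox6b2, Cox7a1 and Ndufb2, which had few counts.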
